A study of Mus musculus with 12 samples.

Results

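The effect of P53 loss on the transcriptome of mouse embryonic stem cells (ESCs) in serum culture was measured in 4 of the 12 samples of the study, 2 P53-/- libraries and 2 wild-type (WT) libraries. The libraries were chosen by their column names, which give genotype and culture, and all gene symbols were used. R1 ESCs carrying the FUCCI reporters, whose fluorescence differs between G1 and the later phases of the cell cycle, were cultured in serum and sorted by flow cytometry for G1 phase in both groups. The P53-/- cells were made with CRISPR/Cas9 aimed at an exon common to the *Trp53* isoforms, and the WT cells are the same reporter line without that deletion. Clones 1 and 2 are named for the RNA-seq in the study, and the columns do not say which clone a library came from. Libraries are therefore numbered within a group by column order, and the p values measure the spread between these libraries, which may be technical or clonal. P53-/- and WT cells of the same line in 2i, a serum-free medium with 2 kinase inhibitors, have 4 further libraries, used here to estimate the spread and for a comparison of the serum and 2i effects.

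P53 is a transcription factor that is held at a low level by the ubiquitin ligase MDM2 and its relative MDM4, and that is stabilized and activated by DNA damage and other stress. It binds a paired DNA element near its targets and activates genes of cell cycle arrest, cell death, DNA repair and metabolism, among them *Mdm2* itself, which closes a feedback loop. In serum, ESCs pass G1 quickly, with cyclin E and CDK2 active through the cycle and the G1 checkpoint weak, and whether P53 still drives its targets in these cells is the question that this comparison addresses.

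Values are FPKM, fragments scaled by transcript length and by the number of mapped fragments, as the authors deposited them. A fold change is on the log2(FPKM + 0.1) scale and a gene was called at a limma adjusted p under 0.1 with a fold change over 1.5. The number of fragments per library is not given, and the low values put it, relative to WT library 1, at 0.94 and 0.712 for the P53-/- libraries and 0.532 for WT library 2. Between 15004 and 15600 symbols had a value above 0 in a serum library. The ESC markers *Pou5f1*, *Sox2*, *Nanog*, *Zfp42* and *Esrrb* summed to between 1588 and 1780 FPKM in the 4 libraries. Of 16 fibroblast markers, which would mark feeder cells, 12 stayed below 1 FPKM in all 4 libraries, *Col3a1*, *Lum*, *Postn* and *Acta2* were at 0 throughout, and the list summed to between 13.1 and 15.2 FPKM.

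The targeted gene, *Trp53*, had 16.8 and 3.68 FPKM in P53-/- against 77.6 and 75.1 in WT. Both P53-/- libraries lay below WT, and P53-/- library 1 kept the higher level. The log2 fold change was −3.26 (SE 0.74), and at a limma adjusted p of 0.15 *Trp53* was not called. Without P53-/- library 1 it was called at an adjusted p of 0.0817, and in a fit that left out small RNA genes at 0.0859. RNA of a gene cut within an exon can persist, so that this level does not measure the protein.

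Loss of P53 lowered far more genes than it raised in serum. Among 12368 genes tested, small RNA and Y-linked genes apart, 107 were lower in P53-/- (0.865% of genes tested) and 17 were higher (0.137%). The balance was close at an unadjusted p under 0.05, with 741 genes lower (5.99%) and 673 higher (5.44%), 11.4% of genes in all. Of the 107 genes that fell, 85 fell over 2-fold, 40 over 4-fold and 15 over 8-fold, whereas 7 of the 17 rises exceeded 2-fold. The median log2 fold change was −1.54 over the falls and 0.92 over the rises, against 0.016 over all genes tested. In bulk RNA, fewer cells that express a gene and less RNA per cell cannot be told apart. The P53-/- and WT libraries did not overlap for any called gene, which was also the case for 48.2% of all genes tested. On the log2 scale the libraries differed by a median SD of 0.158 within P53-/- and 0.104 within WT. A fit of the 4 serum libraries alone called 30 falls and 2 rises. Without small RNA genes 141 falls and 45 rises were called, with chromosome medians centred 133 and 34. With no filter on low values 70 of the 107 falls and 5 of the 17 rises were still called. Leaving out a library gave between 28 and 102 falls and between 0 and 33 rises, with no rise left without P53-/- library 2.

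The 25 largest falls among genes with a mean serum FPKM of at least 1 left between 0 and 9.39 FPKM in the P53-/- libraries, the highest value being that of *Ccng1*. *Eda2r*, the TNF receptor superfamily member for the ectodysplasin EDA-A2, stood at 0.109 and 0.263 FPKM in P53-/- against 55.1 and 59.8 in WT. This was the steepest fall, with a log2 fold change of −7.71 (SE 0.31, limma adjusted p = 6.55e-05). The fold was 209 with the pseudocount of 0.1, 49.4 with 1 and 319 with 0.01, since the P53-/- values of *Eda2r* are close to the pseudocount. *Plk2*, a polo-like kinase, was read at 0.544 and 0.152 FPKM in P53-/- and at 17.1 and 13.5 in WT, with a log2 fold change of −5.25 (SE 0.41, adjusted p = 0.0018 by limma). *Phlda3*, an inhibitor of AKT, came to 0.943 and 2.04 FPKM against 36.4 and 36.4, a fall of 24.4-fold. The anoctamin gene *Ano3* had 1.89 and 2.25 FPKM in WT and was listed at 0 in both P53-/- libraries, as it was in P53-/- in 2i. Since it passed the filter through WT alone and its zeros add no spread, its p is not given. For each of these genes the WT libraries were close together and far above P53-/-. The size of such falls depends on the pseudocount. Of the 42 falling genes named by the rule, 18 had a fold that moved by more than 1.5 times with a pseudocount of 1 or 0.01, and 15 of these were below 1 FPKM in both P53-/- libraries. With a pseudocount of 1 the fold was 12.2 for *Plk2* and 15.4 for *Phlda3*, and the other 16 are *Ano3*, *Eda2r*, *Cd80*, *Zfp365*, *Serpine2*, *Ephx1*, *Eng*, *Kbtbd11*, *1700007K13Rik*, *Pid1*, *Arap2*, *D630023F18Rik*, *Rtkn*, *Bbc3*, *Cpt1c* and *Lif*.

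**Figure D1:**
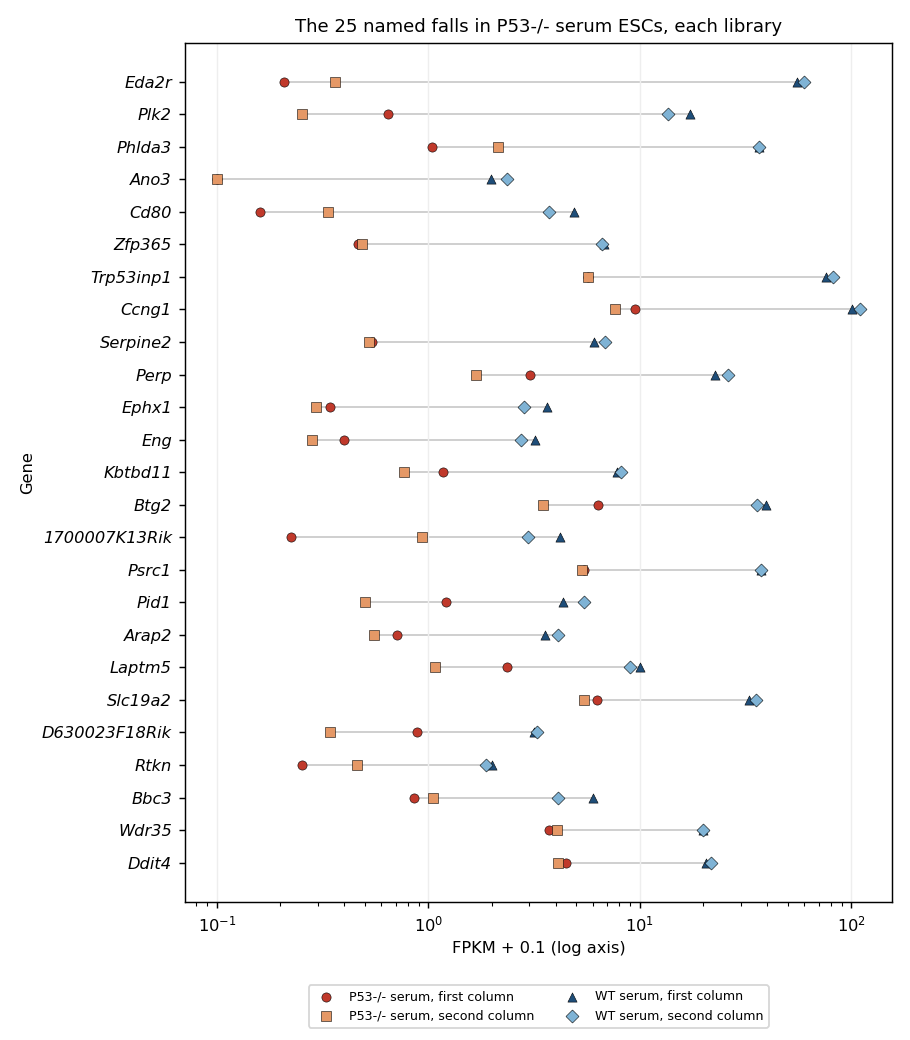
The x axis gives FPKM + 0.1 on a log axis for the 25 named falls, 1 row per gene ordered by fold change, with 1 point for each of the 4 serum libraries. In every row the 2 P53-/- libraries lie to the left of the 2 WT libraries, from *Eda2r* (55.1 and 59.8 FPKM in WT, 0.109 and 0.263 in P53-/-) to *Ddit4* (20.4 and 21.7 in WT, 4.37 and 4.01 in P53-/-).

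Of these 25 genes, 15 belonged to hand-written lists of P53 target genes and 10 did not. Among the 10, *Zfp365* had 0.366 and 0.388 FPKM in P53-/- against 6.67 and 6.56 in WT, a fall of 14.1-fold (limma adjusted p = 0.00601), or 5.53-fold with a pseudocount of 1. *Eng*, the TGF-beta co-receptor endoglin, had 0.299 and 0.183 FPKM against 3.09 and 2.64, a fall of 8.79-fold (limma adjusted p = 0.00477), or 3.11-fold with a pseudocount of 1. *Wdr35*, which encodes a subunit of the intraflagellar transport machinery of cilia, had 3.62 and 3.95 FPKM against 19.7 and 19.8, a fall of 5.11-fold (limma adjusted p = 0.0102). In all 3 genes the values within a genotype differed little beside the distance between genotypes. *Kbtbd11*, *1700007K13Rik*, *Pid1*, *Laptm5*, *D630023F18Rik*, *Rtkn* and *Ano3* complete the 10. Of these, *1700007K13Rik*, *Pid1* and *D630023F18Rik* were not called with no filter on low values (limma adjusted p = 0.186, 0.13 and 0.117), and *1700007K13Rik* was not with a pseudocount of 0.01 (limma adjusted p = 0.125). *Laptm5*, a lysosomal membrane protein gene, had 2.25 and 0.981 FPKM in P53-/- and 9.9 and 8.89 in WT.

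Sequences that resemble the P53 response element lay near the start of a few of the falling genes, and they are shown because they are the kind of element through which P53 reaches a promoter. RefSeq promoter windows of GRCm38.p6, from 250 bases before to 50 after the annotated start, were at hand for 86 of the 107 genes that fell. The element was searched on both strands with at most 2 mismatches to the consensus, at most 1 base between its parts and the core bases of each part fixed. It was found in 7 of these 86 windows (8.14%), in 94 of the 9765 windows of all genes tested (0.963%) and in 0 of 15 windows of genes that rose. Capitals mark the element, lower case the flanking bases, and each is written on the strand of its gene.
Cdkn1a, chr17:29090924-29090951, plus strand: tcagGAACATGTCTTGACATGTTCagcc
Ccng1, chr11:40755458-40755485, minus strand: ggccAGACCTGCCCGGGCAAGCCTtggc
Zfp365, chr10:67912702-67912729, minus strand: agcaAGACTAGGCTGGGCAAGACTggca
Cd80, chr16:38458818-38458845, plus strand: ctcaGAACAGGCCTGGACAAGTCAcctc
Pid1, chr1:84284680-84284707, minus strand: gcagAAGCCCGCCCGGGCATGCTCagac
1700007K13Rik, chr2:28466281-28466309, minus strand: gcacAGACTTGATCTGGGCTAGTTTcctg
Ppfibp2, chr7:107606827-107606855, plus strand: taaaGCACTTGCCCAGAGCTTGCCCaagc
A match describes the letters of the window and is not a measured binding site, and many P53 elements of its targets lie in introns or further upstream, outside these windows. *Ppfibp2*, which falls outside the rule for named genes and was named after its value was seen, had 1.59 and 1.15 FPKM in P53-/- and 2.94 and 3.03 in WT.

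Over the 6 lists of P53 target genes together, 32 of 109 genes tested were lower and 0 higher, with a median log2 fold change of −0.49. Over all genes tested 0.865% were lower and 0.137% higher, and these shares stand behind the counts of each of the 6 lists. The P53-/- libraries lay wholly below or above WT for 83 of the 109, against 48.2% of all genes tested. The members had been chosen as P53 targets with earlier results of these data known, and their counts are no independent evidence of the direction. Both P53-/- libraries showed it, with a median of −0.43 below the WT mean in library 1 and −0.56 in library 2. A fit of the serum libraries alone called 17 of them lower, and leaving out WT library 1 or WT library 2 left 18 in each case.

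Among the 14 tested genes of the P53 circuit and its feedback, 5 were lower and none was higher, with a median of −0.29. *Mdm2*, the ubiquitin ligase that degrades P53, had 21.8 and 19.8 FPKM in P53-/- and 79.7 and 69.3 in WT, a fall of 3.56-fold (log2 −1.83, SE 0.15, limma adjusted p = 0.00217). *Mdm4*, its non-catalytic partner, had 21.5 and 18.3 FPKM against 59.5 and 55.2, a fall of 2.89-fold (limma adjusted p = 0.0043). Both feedback inhibitors kept FPKM values between 18.3 and 21.8 in the P53-/- cells. *Ccng1*, which encodes cyclin G1, a recruiter of PP2A to MDM2, had 9.39 and 7.5 FPKM in P53-/- and 100.5 and 110.2 in WT, a fall of 12.4-fold (limma adjusted p = 7.55e-05). *Trp53inp1*, a stress-induced partner of P53, had 5.57 and 5.57 FPKM against 75.7 and 82.2, a fall of 13.9-fold with the lowest adjusted p of all genes tested by limma, 2.51e-05. *Ppp2r5c*, a regulatory subunit of PP2A, fell 1.88-fold, from 72.1 and 68.3 FPKM to 38.7 and 35.9. Other regulators of P53 were not called: *Ppm1d* had 9.94 and 11.3 FPKM against 13.3 and 11.3, and *Usp7* had 86.2 and 79.7 against 85.9 and 82.0. *Cdkn2a* had 21.6 and 8.66 FPKM in the P53-/- libraries, on either side of 16.7 and 18.7 in WT.

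Of 21 apoptosis targets tested, 9 were lower and 0 higher, with a median of −0.75. They span the receptors, the mitochondrial step and the downstream effectors of cell death. Among receptors, *Tnfrsf10b*, the death receptor for TRAIL, had 1.5 and 2.48 FPKM in P53-/- and 6.11 and 5.55 in WT, a fall of 2.92-fold (limma adjusted p = 0.0596), beside *Eda2r* above. *Bbc3*, which encodes the BH3-only protein PUMA, had 0.756 and 0.947 FPKM against 5.89 and 4.0, a fall of 5.23-fold (limma adjusted p = 0.0112), or 3.17-fold with a pseudocount of 1. *Apaf1*, the scaffold of the apoptosome, had 3.97 and 3.77 FPKM against 7.90 and 8.22, a fall of 2.06-fold (limma adjusted p = 0.0242). In these genes every P53-/- library lay below every WT library. *Perp*, a tetraspan membrane protein gene, fell 10.8-fold (limma adjusted p = 0.0557), from 22.6 and 26.1 FPKM to 2.94 and 1.57. The *Perp* call was kept under 7 of 15 alternative settings and lost with no filter on low values (limma adjusted p = 0.125). The *Tnfrsf10b* call was kept under 8 of the 15. *Zmat3*, an RNA-binding protein gene, fell 3.56-fold and *Aen*, a nuclease gene, 1.98-fold. Other classical targets did not pass the test. *Bax*, the pore-forming BCL2 family member, had 75.4 and 93.5 FPKM in P53-/- and 123 and 130 in WT (log2 −0.59, limma adjusted p = 0.185), and *Pmaip1*, which encodes NOXA, had 7.79 and 15.4 against 20.99 and 24.3 (log2 −1.04, limma adjusted p = 0.39). For both the P53-/- libraries lay below WT but apart from each other. *Fas* was at 0 in 3 of the 4 libraries and was not tested.

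Of 19 arrest targets tested, 5 were lower and 0 higher, with a median of −0.95. *Cdkn1a* encodes P21, the CDK inhibitor through which P53 holds cells in G1, and had 3.57 and 3.93 FPKM in P53-/- and 16.2 and 18.6 in WT. This was a fall of 4.54-fold (log2 −2.18, SE 0.22, limma adjusted p = 0.00601), and the call was lost without WT library 2, at an adjusted p of 0.126 by limma. The P53-/- libraries were close to each other, and both WT libraries were well above. *Btg2*, an antiproliferative cofactor of mRNA deadenylation, had 6.27 and 3.39 FPKM against 39.5 and 35.6, a fall of 7.98-fold (limma adjusted p = 0.00243). *Psrc1*, which encodes a microtubule-associated protein, had 5.33 and 5.21 FPKM against 37.1 and 37.3, a fall of 6.95-fold (limma adjusted p = 0.00161). *Plk2* and *Ccng1*, given above, are the other called members. *Gadd45a*, a stress sensor and classical P53 target, had 33.6 and 36.0 FPKM in P53-/- and 41.7 and 35.5 in WT, overlapping values. *Gdf15*, a secreted stress cytokine of the TGF-beta family, had 1.17 and 0.592 FPKM against 5.59 and 2.55 (limma adjusted p = 0.122).

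In the list of metabolic targets 6 of 21 genes tested were lower and 0 higher, with a median of −0.39. *Ddit4* encodes REDD1, an inhibitor of mTORC1, and had 4.37 and 4.01 FPKM in P53-/- and 20.4 and 21.7 in WT, a fall of 4.94-fold (limma adjusted p = 0.000244). *Sesn2*, a sestrin of the same mTORC1 pathway, had 5.37 and 4.46 FPKM against 15.0 and 13.0, a fall of 2.81-fold (limma adjusted p = 0.0112). Its relative *Sesn1* was not called, with 10.3 and 13.5 FPKM against 9.05 and 9.78. *Slc19a2*, the high-affinity thiamine transporter, fell 5.85-fold, from 32.8 and 35.3 FPKM to 6.14 and 5.34. *Ephx1*, microsomal epoxide hydrolase, fell from 3.53 and 2.74 FPKM to 0.242 and 0.193, by 10.1-fold, or 3.38-fold with a pseudocount of 1. The lipid genes *Lpin1*, a phosphatidate phosphatase, and *Cpt1c*, of the carnitine palmitoyltransferase family, fell 4.54-fold and 4.76-fold, the latter 2.65-fold with a pseudocount of 1. *Tigar*, a fructose bisphosphatase, had 28.8 and 26.9 FPKM in P53-/- and 27.3 and 28.3 in WT and was not called.

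The repair list had the fewest calls of these lists, with 1 of 16 genes tested lower, 0 higher and a median of −0.085. The called gene was *Polk*, a translesion DNA polymerase, with 2.05 and 1.75 FPKM in P53-/- and 6.78 and 7.20 in WT, a fall of 3.55-fold (limma adjusted p = 0.0186). *Mgmt*, the repair methyltransferase for O6-methylguanine, had 0.609 and 3.57 FPKM against 10.6 and 12.7. The P53-/- libraries lay far below WT and far from each other, and the limma adjusted p was 0.142. *Ddb2*, *Xpc* and *Rrm2b*, known P53 targets of excision repair and nucleotide supply, were not called, with log2 fold changes of −0.23, 0.30 and 0.38.

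Targets at the membrane and in signaling had 9 of 22 genes tested lower and 0 higher, with a median of −0.80. *Cd80*, a costimulatory ligand of T cells, had 0.0598 and 0.235 FPKM in P53-/- and 4.78 and 3.63 in WT, a fall of 18.4-fold (limma adjusted p = 0.0064). This fold was 4.52 with a pseudocount of 1 and 31.9 with 0.01. *Serpine2*, the protease inhibitor nexin-1, had 0.442 and 0.427 FPKM against 5.98 and 6.73, a fall of 12.1-fold (limma adjusted p = 0.00601). The *Serpine2* fold was 5.12 with a pseudocount of 1, and with 0.01 the call was lost, at a limma adjusted p of 0.18. *Lif*, the cytokine that maintains ESCs, was low in both groups, with 0.136 and 0.202 FPKM against 1.10 and 0.942 (limma adjusted p = 0.0784). With a pseudocount of 1 the *Lif* call was lost (limma adjusted p = 0.152). ESC medium contains added LIF, and these values are those of the cells' own transcript. *Arap2*, *Ak1*, *Rnf169*, *Exoc4*, *Pvt1* and *Ephx1* are the other called members, with falls from 10.1-fold in *Ephx1*, which is also in the metabolic list, to 1.9-fold in *Pvt1*. The calls of *Pvt1* and *Rnf169* were each kept under 7 of 15 alternative settings. *Exoc4*, a subunit of the exocyst, was at 21.9 and 21.5 FPKM in P53-/- and at 42.6 and 44.8 in WT.

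**Figure D2:**
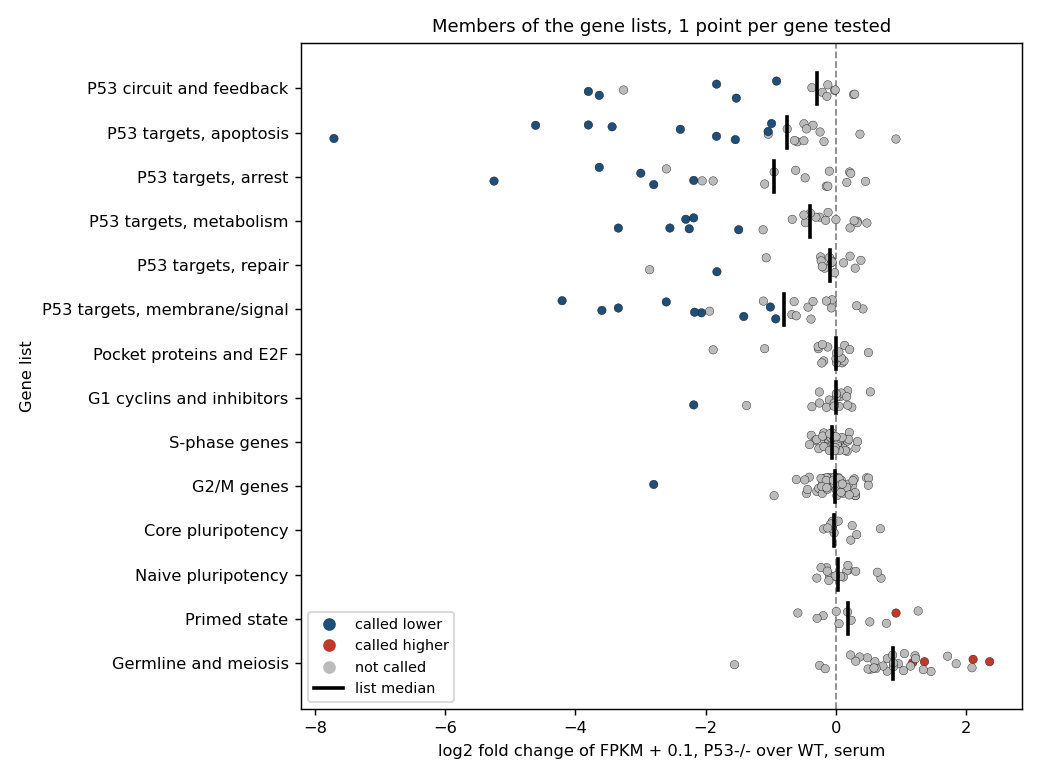
The x axis gives the log2 fold change of P53-/- over WT in serum, and each point is a tested gene of the list on the y axis, with black bars for list medians, blue for genes called lower, red for genes called higher and grey for genes not called. The blue points lie in the P53 target lists (medians from −0.95 to −0.085) and, as *Cdkn1a* and *Psrc1*, in the G1 and G2/M lists. The germline list has its median at 0.88, and its 4 called genes are red.

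The other 75 falling genes were in none of these lists. Of the falls, 65 lay outside the rule for named genes, and their log2 fold changes ran from −4.13 to −0.66. The following were chosen from them after their values had been seen. *Dglucy*, D-glutamate cyclase, was at 0.0253 and 0 FPKM in P53-/- and at 1.98 and 1.73 in WT (limma adjusted p = 0.000517). *Ang*, a secreted ribonuclease gene, had 1.14 and 0.759 FPKM in WT and was listed at 0 in both P53-/- libraries. Neither gene reached a mean of 1 FPKM. *Lrp1*, an endocytic receptor, had 1.24 and 1.14 FPKM against 5.07 and 5.19, and *Abcb1b*, a drug efflux pump, had 1.36 and 1.38 against 5.06 and 4.62. *Jak3*, a cytokine receptor kinase, had 2.62 and 2.75 FPKM against 4.56 and 5.23. *Fdft1*, squalene synthase, had 15.9 and 16.1 FPKM against 28.8 and 25.9. None of these genes overlapped between genotypes. In all, 27 of the 107 falling genes were below 1 FPKM in both P53-/- libraries.

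Among 97 S-phase and G2/M genes 1 was called, about the share over all genes tested (0.865% lower and 0.137% higher), and nothing particular to them is read from that count. Of 43 S-phase genes tested none was called by limma, with 3 at an unadjusted p under 0.05, 2 of them lower, against 11.4% of all genes tested, and a median of −0.056. Of 54 G2/M genes 1 was called, *Psrc1*, with 11 at an unadjusted p under 0.05, 7 of them lower, and the median was −0.016. Among 19 pocket protein and E2F genes none was called by limma, with 2 lower at an unadjusted p under 0.05, against 5.99% of all genes tested. These were *Rb1* and *Rbl2*, which encode the pocket proteins RB and P130 that hold E2F factors in check. *Rb1* had 0.650 and 1.08 FPKM in P53-/- and 3.26 and 3.50 in WT (log2 −1.88, SE 0.41, limma adjusted p = 0.13). *Rbl2* had 1.45 and 1.15 FPKM against 3.01 and 2.72 (log2 −1.09, SE 0.25, limma adjusted p = 0.15). Both genes had P53-/- values below WT without overlap. *Rb1* passed the threshold with a pseudocount of 1 (limma adjusted p = 0.0689), without small RNA genes (0.0905) and with chromosome medians centred (0.0988). *Rbl1*, the remaining pocket protein gene, had 5.52 and 6.15 FPKM against 5.45 and 5.43. The other 11 genes of the study's cell cycle panel here, *Rbl1*, *Nanog*, *Myc*, *Ccnd2*, *Ccne1*, *Ccne2*, *Cdkn1b*, *E2f2*, *E2f3*, *E2f4* and *E2f7*, had log2 fold changes between −0.19 and 0.24, and none was called. *Ccne1*, which encodes cyclin E1, was at 153 and 173 FPKM in P53-/- and at 174 and 175 in WT. *Cdkn1b*, which encodes the CDK inhibitor P27, had 18.7 and 17.7 FPKM against 18.1 and 17.04, overlapping values. *Cdkn2b*, the INK4 inhibitor P15, had 0.752 and 0.416 FPKM against 1.69 and 1.55 (limma adjusted p = 0.121).

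For core and naive pluripotency genes the counts were near those over all genes tested. Of 13 core and 16 naive pluripotency genes tested none passed in limma, with 1 core and 2 naive genes at an unadjusted p under 0.05 (11.4% of all genes tested) and medians of −0.027 and 0.037. *Nanog* had 329 and 452 FPKM in P53-/- and 323 and 335 in WT, overlapping values. *Pou5f1*, which encodes OCT4, had 473 and 548 FPKM against 523 and 532. Among 11 genes of the primed state 1 was called higher (0.137% of all genes tested), and 3 were at an unadjusted p under 0.05, 2 of them higher. The called gene was *Dnmt3a*, with 24.2 and 29.0 FPKM in P53-/- and 13.8 and 14.0 in WT. The related *de novo* DNA methyltransferase *Dnmt3b* had 31.7 and 29.4 FPKM against 32.3 and 28.6 and was not called. Of the 8 primitive endoderm, 7 mesoderm, 6 neural and 7 trophoblast markers tested none was called by limma. In each of these lists 1 gene was at an unadjusted p under 0.05, near the 11.4% of all genes tested. The summed levels ran from 167 to 184 FPKM for primitive endoderm, from 9.96 to 10.6 for mesoderm, from 142 to 182 for neural and from 13.15 to 20.04 for trophoblast markers. Neural markers summed to 167 and 182 FPKM in P53-/- and to 143 and 142 in WT.

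The 17 rises were mostly smaller than the falls, and their log2 fold changes ran from 0.70 in *Nabp1* to 2.36 in *Ly6k*, apart from *1700020N01Rik*. *1700020N01Rik* was at 0.610 and 0.696 FPKM in P53-/- and listed at 0 in both WT libraries (limma adjusted p = 0.0478). Its zeros in WT add no spread to the test, so that this p is no full measure of replicate error. With a pseudocount of 1 *1700020N01Rik* was not called (limma adjusted p = 0.246), and no fold is given against values of 0. *Ly6k*, a GPI-anchored protein of testis, had 1.45 and 3.16 FPKM in P53-/- and 0.239 and 0.464 in WT, a rise of 5.14-fold (limma adjusted p = 0.082). With a pseudocount of 1 the *Ly6k* fold was 2.37 and the call was lost, at a limma adjusted p of 0.142. *Aurkc*, the Aurora kinase of meiosis, had 1.997 and 3.72 FPKM against 0.483 and 0.639, a rise of 4.31-fold (limma adjusted p = 0.0596). With a pseudocount of 1 the *Aurkc* fold was 2.41 and the call was likewise lost (limma adjusted p = 0.175). In *Ly6k* and *Aurkc* the P53-/- libraries differed from each other by more than the WT libraries did. *Stk31*, a kinase-domain gene of germ cells, had 19.07 and 25.8 FPKM against 9.93 and 9.55, a rise of 2.26-fold (limma adjusted p = 0.0509). *Hormad2*, a protein of the meiotic chromosome axis, had 6.41 and 7.92 FPKM against 2.55 and 2.89, a rise of 2.57-fold (limma adjusted p = 0.0972), not called with a pseudocount of 1 (limma adjusted p = 0.136). *Dnmt3a* rose 1.9-fold (limma adjusted p = 0.0641). The P53-/- libraries lay above WT in each of these genes.

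**Figure D3:**
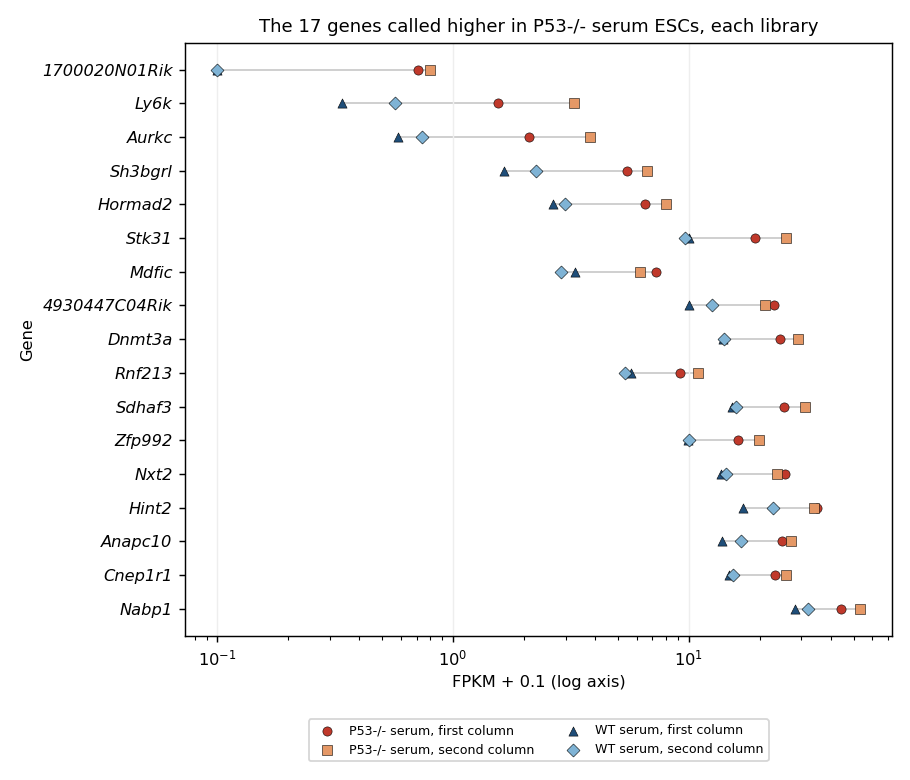
The x axis gives FPKM + 0.1 on a log axis for the 17 genes called higher, 1 row per gene ordered by fold change, with 1 point for each of the 4 serum libraries. Both P53-/- libraries lie to the right of both WT libraries in every row, and *1700020N01Rik* is listed at 0 in WT.

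The other rises were *Sh3bgrl* (3.14-fold), *Mdfic* (2.19-fold), *4930447C04Rik* (1.96-fold), *Rnf213* (1.81-fold), *Sdhaf3* (1.81-fold), *Zfp992* (1.79-fold), *Nxt2* (1.76-fold), *Hint2* (1.76-fold), *Anapc10* (1.71-fold), *Cnep1r1* (1.62-fold) and *Nabp1* (1.62-fold). They include *Mdfic*, a MyoD family inhibitor, *Rnf213*, a large ubiquitin ligase, *Sdhaf3*, an assembly factor of succinate dehydrogenase, and *Anapc10*, a subunit of the anaphase-promoting complex. *Sh3bgrl* had 5.39 and 6.51 FPKM in P53-/- and 1.54 and 2.14 in WT (limma adjusted p = 0.0375), the lowest adjusted p of the 17. None of the 17 rises kept its call under all 15 alternative settings, whereas 18 of the 107 falls did. Those 18 were *Ano3*, *Ccng1*, *Ddit4*, *Dglucy*, *Dyrk3*, *Eda2r*, *Eng*, *Ephx1*, *Lrp1*, *Mdm2*, *Mdm4*, *Phlda3*, *Psrc1*, *Rap2b*, *Slc19a2*, *Trp53inp1*, *Zfp365* and *Zmat3*, 11 of them members of the P53 lists. The zeros of *Ano3* in P53-/- add little or no spread to its test.

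In serum, most of the germline and meiosis genes had higher values in P53-/-. In 2i the list had a median log2 fold change of 0.16, with 3 genes called higher and 3 lower (4.37% and 6.06% of all genes tested). Of 33 tested, 4 were higher in serum (*Stk31*, *Hormad2*, *Aurkc* and *Ly6k*) and 0 lower, beside 0.137% and 0.865% of all genes tested. A fold change above 0 in serum was found for 30, against 52.4% of all genes tested, and the median log2 fold change was 0.88. At an unadjusted p under 0.05, 16 were higher and 1 was lower, beside 5.44% and 5.99% of all genes tested. These 4 genes had been named in earlier results of these data, and without them 26 of 29 genes lay above 0, with 12 higher at an unadjusted p under 0.05 and a median of 0.79. The list as a whole was also chosen with earlier results of these data known. Its counts, with or without the 4 genes, are therefore no independent evidence of the direction. *Stra8*, the gate to meiosis induced by retinoic acid, had 19.8 and 27.9 FPKM in P53-/- and 8.87 and 8.10 in WT (log2 1.46, limma adjusted p = 0.116). *Taf7l*, a germ cell TFIID subunit, had 4.60 and 3.77 FPKM against 1.57 and 1.59 (log2 1.34, limma adjusted p = 0.124). *Ddx4*, the VASA helicase, had 21.5 and 19.6 FPKM against 11.9 and 11.8 (log2 0.79, limma adjusted p = 0.12). In these 3 genes the genotypes did not overlap. *Dazl*, an RNA-binding protein of germ cells, had 4.25 and 12.8 FPKM against 4.14 and 5.66, overlapping values, and *Asz1*, a piRNA pathway gene, had 0.0969 and 2.38 against 0.0452 and 0.0855. The list was higher in P53-/- library 2, with a median of 1.20 above the WT mean and 31 of 33 genes above it, than in library 1, with 0.65 and 26 of 33. With a pseudocount of 1, and likewise with no filter on low values, *Stk31* was the only one of the 4 still called. None of the 4 was called without P53-/- library 2, without WT library 1, without WT library 2, with serum libraries alone, without a variance trend or at an adjusted p under 0.05 from limma.

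Most genes that fell in serum were also called lower in 2i. Of the 107 falls, 83 were also called lower in 2i, where 749 of the same genes tested were lower (6.06%), and 105 had the same sign. Of the 17 rises, 5 were also called higher in 2i, where 540 were higher (4.37%), and 14 had the same sign. Over all genes tested 59.5% had the same sign in serum and 2i. The 89 serum calls that were called in 2i, *Ly6k* in the opposite direction among them, made up 71.8% of the serum calls and 6.90% of the 1289 genes called in 2i (10.4% of genes tested). The falls had a median log2 fold change of −1.54 in serum and −1.64 in 2i, and the rises one of 0.92 and 0.48. Both sets were chosen by passing in serum, which favours large serum values, so that the medians of the cultures are not on equal terms. The comparisons in serum and 2i share no libraries, but they share 1 estimate of the spread.

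**Figure D4:**
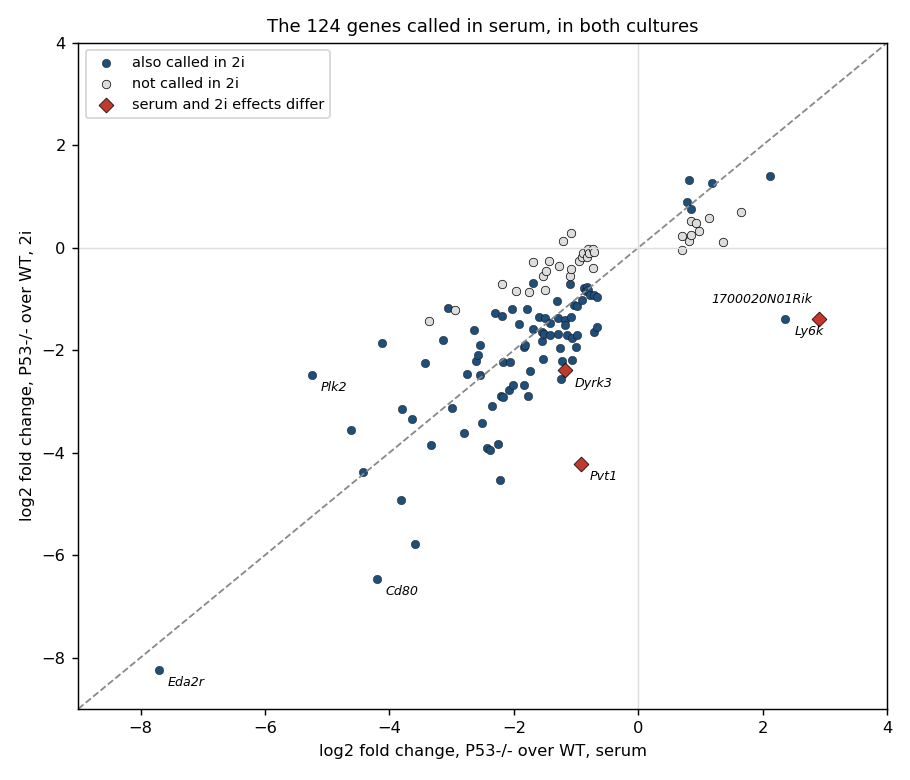
Each point is 1 of the 124 genes called in serum, with its log2 fold change of P53-/- over WT in serum on the x axis and in 2i on the y axis, and the dashed line marks equal effects. Blue points were also called in 2i, *Ly6k* in the opposite direction, and light grey points were not. Red diamonds mark *Pvt1*, *Dyrk3* and *1700020N01Rik*, whose effects differ between the cultures. Fold changes of genes listed at 0 depend on the pseudocount.

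The effect in serum differed from that in 2i for 3 of the 124 genes by the interaction test in limma, which called 17 of all genes tested (0.137%). At an unadjusted p under 0.05 in that test the effects differed for 57 of the 124, against 13.3% of all genes tested. The 124 were chosen by their serum effect, which is part of this difference. *Pvt1*, a long non-coding RNA gene next to *Myc*, had 6.496 and 5.09 FPKM in P53-/- serum cells and 10.7 and 11.3 in WT. Its log2 fold change was −0.92 in serum and −4.22 in 2i, and the difference of 3.30 had a limma adjusted p of 0.00178. *Dyrk3*, a kinase that dissolves stress granules, had 17.6 and 18.9 FPKM against 42.2 and 40.4 in serum, with a log2 fold change of −1.18 there and −2.40 in 2i (limma adjusted p = 0.0544). It was named after its values were seen. The third gene was *1700020N01Rik* (limma adjusted p = 0.0947), which rose in serum and whose difference was not called with a pseudocount of 1 (limma adjusted p = 0.111). The zeros of *1700020N01Rik* in WT serum add no spread to these p values. Called in serum and not in 2i were 24 falls and 11 rises, and the difference between the cultures passed the test for 1 of these 35. The 24 falls had a median log2 fold change of −1.15 in serum and −0.32 in 2i, and the smaller median in 2i follows from choosing genes that were not called there. *Smox*, spermine oxidase, and *Wwtr1*, which encodes the Hippo effector TAZ, belong to them and were chosen after their values had been seen. *Smox* had 1.29 and 0.928 FPKM in P53-/- serum cells and 3.72 and 3.81 in WT, and *Wwtr1* had 6.87 and 7.05 against 11.3 and 11.8.

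Small RNA genes were tested with the rest but are given apart, since their FPKM values are very large and often 0. Of 175 tested, 2 were lower and 0 higher (1.14%), and both were microRNA genes listed at 0 in all libraries other than WT serum. They passed the filter on low values through WT serum alone, and since the zeros of the other groups add no spread, their limma adjusted p is no measure of replicate error and is not given. *Mir34a*, a microRNA gene that P53 is known to activate, had 163 and 490 FPKM in WT and was listed at 0 in both P53-/- libraries. *Mir24-2*, of the *Mir23a*, *Mir27a* and *Mir24-2* cluster, had 260 and 83.3 FPKM in WT and was listed at 0 in both P53-/- libraries. The mature sequences are shown because their seeds set which messages they bind. They are written from RefSeq with GRCm38.p6 positions, and capitals mark the seed, bases 2 to 8.
mmu-miR-34a-5p, chr4:150068473-150068494, plus strand: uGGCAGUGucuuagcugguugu
mmu-miR-34a-3p, chr4:150068517-150068537, plus strand: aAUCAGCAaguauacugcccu
mmu-miR-34b-5p, chr9:51103610-51103632, minus strand: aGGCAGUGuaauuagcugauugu
mmu-miR-24-2-5p, chr8:84208839-84208860, plus strand: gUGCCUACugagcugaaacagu
mmu-miR-24-3p, chr8:84208875-84208896, plus strand: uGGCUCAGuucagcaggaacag
The 5p products of *Mir34a* and *Mir34b* share their seed. *Mir34b* and *Mir34c*, the other family genes, were at 0 in all 4 serum libraries, and so were *Mir24-1* and *Mir23a*. *Mir27a* was at 0 except for 682 FPKM in WT library 2.

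The number of fragments behind these microRNA values is not given, and the values do not measure mature microRNAs. A hairpin is so short that a few fragments can give a large FPKM. The median microRNA gene above 0 stood at between 344 and 600 FPKM in a library. The lowest microRNA value above 0 was 119 FPKM in WT library 1 and 35.5 in WT library 2, and the 163 FPKM of *Mir34a* in the former and the 83.3 of *Mir24-2* in the latter lie not far above them. Of the 1145 microRNA genes in the table, 72 were above 0 in any serum library and 11 in all 4, and 61 were at 0 in some but not all. WT library 2, with the higher *Mir34a* value, had 55 microRNA genes above 0, WT library 1 had 18, and the P53-/- libraries had 23 and 36. Of 98 snoRNA genes tested none was called by limma, none had an unadjusted p under 0.05, and their median log2 fold change was 0.23. The WT libraries stood far apart in these genes, with 94 of the 98 higher in WT library 2 than in WT library 1 and a median log2 difference of 2.28. The median of P53-/- was 1.42 above WT library 1 and −0.85 relative to WT library 2, so that neither the absence of calls nor the median of 0.23 shows equal snoRNA levels.

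Whole chromosomes differed in level between the P53-/- libraries. In P53-/- library 1 the genes of chromosome 14 had a median log2 difference from the WT mean of −0.31. In library 2 chromosome 7 stood at 0.28, chromosome 18 at 0.27, chromosome 9 at −0.26 and chromosome 15 at −0.20, while the medians of chromosome 14 in library 2 (0.055) and of chromosome 7 in library 1 (0.0089) were near 0. Smaller shifts were found, among others, on chromosome 5 in library 1 (0.15) and on chromosome 13 in both libraries (0.11 and 0.13). The WT libraries differed from each other by at most 0.057 on any chromosome. Called lower were 7 of 414 genes tested on chromosome 14, 9 of 959 on chromosome 7 and 3 of 700 on chromosome 9. On chromosome 15 it was 4 of 491 and on chromosome 18 it was 1 of 298. Chromosomes 7 and 15 had 1 rise each. Over all genes tested 0.865% were lower and 0.137% higher, and nothing particular to these chromosomes is read from the counts. *Tnfrsf10b* and *Rb1* are on chromosome 14, and both were lower in P53-/- library 1 than in library 2. With chromosome medians centred in each library, the log2 fold change was −1.45 for *Tnfrsf10b* and −1.79 for *Rb1*, and 133 falls and 34 rises were called, 102 and 16 of them the same genes as before. The part of chromosome-wide shifts in single results was not tested.

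**Figure D5:**
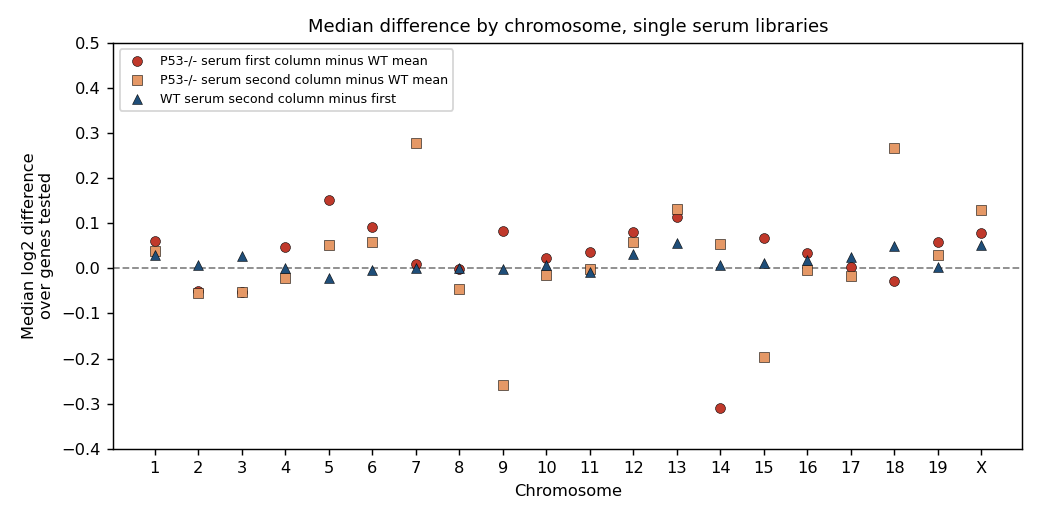
The y axis gives the median log2 difference over the genes tested on each chromosome (x axis), for each P53-/- serum library against the WT mean and for the 2 WT libraries against each other. The largest departures from 0 are those of library 1 on chromosome 14 (−0.31) and of library 2 on chromosomes 7, 9, 15 and 18, chromosome 13 is above 0 in both P53-/- libraries (0.11 and 0.13), and the WT difference stays within 0.057.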

How the data were processed

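RNA was extracted from G1-sorted ESCs, depleted of ribosomal RNA and made into stranded libraries with random primers. The authors deposited 1 table of FPKM values, already scaled by gene length and mapped fragments, with 24881 gene symbols and 8 columns. The submitters' processing notes name STAR, Cufflinks, DESeq2 and mm9 without versions or roles, and no coordinates are given for the table's genes because the annotation at hand is of GRCm38. Positions of the printed promoter elements and microRNAs are those of the RefSeq tables for GRCm38.p6. Columns carry genotype and culture only, and 4 further samples of the study were not analysed here.

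The test took genes whose FPKM averaged 0.5 or more over the 8 libraries (12572 in all, of which 201 small RNA and 3 Y-linked genes are not counted among the 12368). It was run on log2(FPKM + 0.1) with limma 3.58.1 in R 4.3.3, in 1 fit of the 4 groups of 2 libraries, with a variance trend and Benjamini-Hochberg adjustment. No count model was fitted to these normalized values. The exact permutation test of 2 libraries against 2 has a smallest two-sided p of 0.33. Spread came from 4 residual degrees of freedom. The pipeline was tested on simulated data.

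Named by rule are *Trp53*, every rise, the 25 largest falls with a mean serum FPKM of at least 1, called list members, the panel of 14 cell cycle and pluripotency genes, and called small RNA genes. List members that were not called, such as *Bax* and *Stra8*, are examples from outside this rule. Genes and lists were chosen with earlier results of these data known. Alternatives were pseudocounts of 1 and 0.01, no filter or a minimum average of 1 FPKM, scaling by median ratios, quantile normalization, serum libraries alone, no trend, an adjusted p under 0.05, no small RNA genes, centred chromosome medians, and each serum library left out. Large values are rounded in the table, and FPKM carry no counting interval.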

Additional observations from a re-analysis of the deposited data

Results flagged for a closer look

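The results below are genes called in serum or members of the gene lists whose P53 effect differed between serum and 2i by the interaction test in limma, with an adjusted p under 0.1 and a difference over 1.5-fold. Values are the log2 effect in serum minus that in 2i. Among genes called in serum, the difference was 3.30 for *Pvt1* (adjusted p = 0.00178 by limma), 1.22 for *Dyrk3* (limma adjusted p = 0.0544) and 4.31 for *1700020N01Rik* (limma adjusted p = 0.0947). The last is listed at 0 in both WT serum libraries, and its value depends on the pseudocount, with 1.53 at a pseudocount of 1, where it is no longer called (limma adjusted p = 0.111). Its zeros add no spread to these p values. For *Mir34a* and *Mir24-2* the fitted differences were −11.5 and −10.5, and since both are listed at 0 in all libraries other than WT serum, these values are set by the pseudocount and their p by the zeros, so that no p is given. Among list members not called in serum, *Adam23*, an ADAM family membrane protein gene, had a difference of 4.34 (limma adjusted p = 0.000317). For *Dapk1*, a death-associated kinase gene, it was 3.53 (limma adjusted p = 0.0109). *Anxa8*, an annexin gene listed at 0 in both P53-/- serum libraries, had a fitted difference of 5.11. The *Anxa8* value depends on the pseudocount, and since its zeros add no spread to the test, its p is not given. *Adam23* was at 14.8 and 16.9 FPKM in P53-/- serum cells and at 24.6 and 26.1 in WT. For *Foxd3*, a transcription factor gene of ESCs, the difference was 2.05 (limma adjusted p = 0.0634).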

How the results depend on the processing

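No paired analysis was possible because the columns carry no replicate numbers. None of the 124 called genes changed direction in those of the 15 alternatives that tested it, but the counts of calls did change. Most alternatives could not have reversed a direction, because the genotypes did not overlap for any called gene. Only median-ratio scaling, quantile normalization and centred chromosome medians could have done so. With serum libraries alone 30 falls, 2 rises, 17 P53 list members and 0 germline genes were called. At an adjusted p under 0.05 the counts were 66 falls, 3 rises, 0 germline genes and 0 genes that were called in serum and differ from 2i. Here and below, genes that differ from 2i are counted only where they were also called in serum under the same setting. The difference itself was under 0.05 in limma for *Pvt1*, *Adam23* and *Dapk1*, as given above. Without a variance trend 7 rises and 0 germline genes were called. Without small RNA genes there were 45 rises, 7 germline genes and 8 genes that differ from 2i, and with centred chromosome medians 34 rises and 10 such genes. A pseudocount of 1 gave 2 germline genes, 5 genes that differ from 2i and a median of −0.38 over the P53 lists, and no filter gave 1 germline gene. Genes that differ from 2i also came to 5 with a pseudocount of 0.01 and with quantile normalization. Leaving out a serum library gave 28 to 102 falls, 0 to 33 rises, 18 to 31 P53 list members, 0 to 6 germline genes and 3 to 16 genes that differ from 2i. Over the same 4 fits the P53 lists had medians from −0.56 to −0.43 and the germline list without the 4 genes named earlier, an alternative added after seeing the data, from 0.59 to 1.15. A library left alone in its group is assumed there to vary like the other groups. The cause of these changes was not tested. Genes near 0 changed sign: *E2f7* was at −0.0040 with median-ratio scaling, *Myc* at 0.089 and *Cdkn1b* at −0.043 with centred chromosome medians, and without a library *Myc* ran from −0.20 to 0.14, *E2f2* from −0.013 to 0.28 and *E2f7* from −0.27 to 0.29.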
